A study of Mus musculus with 9 samples.

Results

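Enteroendocrine cells are scattered epithelial cells that release peptide hormones and serotonin, and 10 mouse genes of these hormones and of the granules that hold them were examined in colon tissue. The genes were chosen by symbol and were Chga, Chgb, Pyy, Gcg, Sst, Insl5, Tph1, Neurod1, Cck and Slc18a1. All 10 were found among the 22262 genes with a count, and together they took up 3081 of 3365665 counted molecules (0.0915%). The study asked how housing affects the mouse gut, and its other samples were not analysed here.

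The 9 animals analysed were wild-type female C57BL/6N mice aged 12 months, housed from weaning in either a standard environment (WT_SE, mice 1, 2, 3 and 5) or an enriched environment (WT_EE, mice 1 to 5). Standard cages held small groups of mice, and enriched cages were larger, held more mice and offered tunnels, wheels and objects that were moved around. The labels do not give the cage of each mouse, so effects of cage, group size and enrichment cannot be told apart. From each mouse, a piece of upper colon 2 to 3 cm long was rinsed and frozen whole, and each count is a molecule with its own identifier, read next to the poly(A) tail in 1 library per mouse.

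Enteroendocrine cells arise from crypt stem cells under basic helix-loop-helix transcription factors and differ in the hormones they store. L cells of the lower gut release peptide YY, glucagon-like peptides and, in the colon, insulin-like peptide 5, D cells release somatostatin, and enterochromaffin cells make most of the serotonin of the body. Chromogranins are acidic proteins packed into the granules of these cells and also of nerve cells, so that tissue counts can come from both.

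Library totals were 383401, 356704, 299062 and 368997 counts in WT_SE mice 1, 2, 3 and 5, and 454043, 295535, 444520, 336967 and 426436 in WT_EE mice 1 to 5. A floor of 3 counts, which stands for 6.61 to 10.2 CPM (counts scaled to a common library total) depending on the library, was taken as the limit of detection for counting error. The 10 genes had mean counts of 5.89 (Slc18a1) to 72.1 (Chgb) per library, so the counting error of the lowest ones is large. Insl5 was at or under the floor in 2 mice, as were Neurod1 and Slc18a1, and Cck was in 1 mouse. The order used for values below is WT_SE mice 1, 2, 3 and 5, then WT_EE mice 1 to 5.

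The tissue label was checked against marker lists. All 12 epithelial genes were counted, with Cdh1 the most counted, and their summed level was 3633, 3194, 3882 and 3881 CPM in WT_SE and 3353, 4124, 3255, 4305 and 3501 CPM in WT_EE. Of 9 pancreas genes, Ins1, Ins2, Cela2a and Cpa1 were at 0 in every library, and Cela1, which the gut also expresses, held 441 of the list's 445 counts. Ghrl, Gip, Gast and Ucn3, hormones best known from the stomach, the small intestine or the pancreas, were also at 0. A count of 0 in a library allows up to 3 counts of its total.

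The pieces differed in some genes that mark position along the gut, and this split ran across both environments. Slc10a2, the sodium-dependent bile acid transporter best known from the ileum, had 26, 103, 110 and 16 counts in WT_SE and 107, 3, 117, 4 and 10 in WT_EE. Osr2, a transcription factor, had 7, 93, 81 and 1 counts in WT_SE and 84, 0, 89, 0 and 0 in WT_EE. Both genes were high in WT_SE mice 2 and 3 and in WT_EE mice 1 and 3. Hoxb13, a homeobox gene of the posterior body, had 4, 0, 0 and 56 counts in WT_SE and 0, 45, 21, 24 and 20 in WT_EE, so that it was at 0 in 3 of those 4 mice and at 21 counts in WT_EE mouse 3. Genes of a list did not all move as one. Hoxa7, a homeobox gene of the proximal list, had 54, 27, 9 and 66 counts in WT_SE and 62, 41, 51, 57 and 70 in WT_EE, lowest in WT_SE mice 2 and 3. Hoxd10, of the distal list, had 2, 22, 8 and 0 counts in WT_SE and 5, 0, 12, 0 and 2 in WT_EE, highest in the same 4 mice as Slc10a2 and Osr2.

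Over the list of 6 proximal genes, all counted and led by Slc10a2, the summed level was 318, 863, 879 and 262 CPM in WT_SE and 741, 174, 811, 241 and 236 CPM in WT_EE. None of the 6 passed an unadjusted p of 0.05 between environments in edgeR, and their median log2 fold change was -0.35. Over all genes tested, 7.65% passed in either direction. Of 9 distal genes, 7 were counted, Hoxa13 most of all, and Hoxd12 and Prac1 were at 0. The distal sum was 211, 209, 166 and 325 CPM in WT_SE and 188, 342, 192, 241 and 234 CPM in WT_EE. Among the 5 distal genes tested, Hoxa11 was higher in WT_EE (log2 fold change 0.74, edgeR unadjusted p = 0.0129) and Hoxd11 was lower (-0.97, edgeR unadjusted p = 0.0101), with a median of -0.10. The first call was lost without WT_SE mouse 3 (0.54, edgeR unadjusted p = 0.0643) and the second without WT_SE mouse 2 (-0.56, edgeR unadjusted p = 0.157).

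The library names of WT_SE mice 1 and 3 end in L3 and those of the other 7 mice in L2, and the labels do not say what the ending stands for. No WT_EE library ends in L3, so only WT_SE mice 2 and 5 allow the ending to be told from the environment. WT_SE mouse 1 also carried more fat transcripts than the others, with a summed level of 953 CPM over 8 fat genes, most of it from Fabp4, Cfd and Adipoq. The other libraries lay between 94.7 and 494 CPM.

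**Figure D1:**
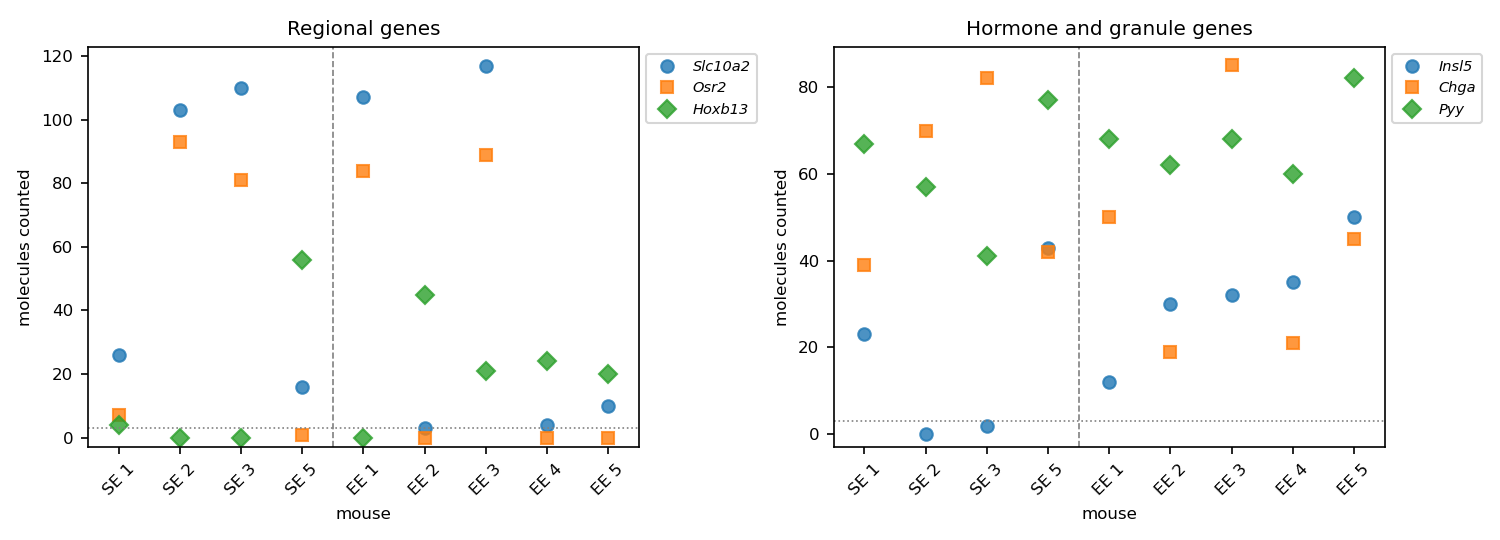
Molecules counted (y axis) in each mouse (x axis, WT_SE left and WT_EE right of the dashed line) for 3 regional genes and 3 hormone or granule genes, 1 point per library, with the floor of 3 counts dotted. Osr2 had 81 to 93 counts in WT_SE mice 2 and 3 and WT_EE mice 1 and 3 and at most 7 elsewhere, and Insl5 had 0, 2 and 12 counts in 3 of those 4 mice and 32 in WT_EE mouse 3.

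Between environments, 2 of the 10 genes passed an unadjusted p of 0.05 in edgeR, Chga and Chgb, both lower in WT_EE, and none was higher. Over the 17441 genes tested in the same edgeR fit, 7.65% passed in either direction, 3.34% were lower in WT_EE and 4.31% were higher. After Benjamini-Hochberg adjustment over all genes tested, 0 of the 10 genes and 0.0401% of all genes had an edgeR adjusted p under 0.05, and DESeq2 called 0 of the 10 adjusted and 2 at an unadjusted p under 0.05, beside 0 and 3.69% of the 17440 genes it tested. The mice of both environments overlapped in all 10 genes, whereas 2.58% of the genes tested had groups that did not overlap. The median log2 fold change of the 10 genes was -0.26, with 6 of them negative, beside 0.01 over all genes tested. Without WT_SE mouse 3 the edgeR count at an unadjusted p under 0.05 was 0 of the 10 and without WT_SE mouse 2 it was 4, and it was 0 with the 7 L2 libraries alone. It was also 0 in the 6 libraries with totals over 350000 and in the 7 with a smooth muscle sum under 3000 CPM, both chosen after seeing the data. Both choices leave out WT_EE mice 2 and 4, the lowest for Chga and Chgb, so the lost calls follow in part from the choice. Of all genes tested, 5.19%, 9.14%, 3.98%, 5.65% and 7.60% passed under these 5 settings in turn. With the mean of the smooth muscle genes as a term, 1 of the 10 passed beside 7.59% of all genes. The median of the 10 lay nearer to 0 under several settings, at -0.0098 with smooth muscle sums under 3000 CPM, -0.051 with the smooth muscle mean, -0.068 with the L2 libraries and -0.080 with the library-name ending as a term, and at 0.12 with totals over 350000.

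The 2 genes that passed encode chromogranins, the granule proteins. Chga, which encodes chromogranin A, lies on chromosome 12 from 102554969 to 102565028 in GRCm38 (ENSMUSG00000021194). It was at 102, 195, 277 and 115 CPM in WT_SE and at 108, 66.2, 186, 64.9 and 104 CPM in WT_EE. WT_SE mice 2 and 3 were the highest of their group and WT_EE mouse 3 reached nearly the level of WT_SE mouse 2, while WT_SE mice 1 and 5 lay among the WT_EE mice. WT_SE mice 2 and 3 and WT_EE mouse 3 were also high in Slc10a2 and Osr2, as was WT_EE mouse 1, at 108 CPM for Chga. The part of position along the gut was not tested apart from the fits with regional genes below. WT_SE averaged 172 ± 81.3 CPM (SD, n = 4), and the mean of the WT_EE mice was 106 ± 49.1 CPM (SD, n = 5). In edgeR the log2 fold change of Chga was -0.62 (standard error 0.24, 95% interval -1.11 to -0.14), with an unadjusted p of 0.0133 and a Benjamini-Hochberg adjusted p of 0.460. A two-sided exact permutation test of the difference in mean CPM gave p = 0.183. In tissue of mixed cells, fewer cells of a type and less RNA per cell cannot be told apart.

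Chgb encodes chromogranin B and lies on chromosome 2 from 132781278 to 132795079 (ENSMUSG00000027350). Its level was 198, 214, 338 and 210.5 CPM in WT_SE and 171, 73.2, 227, 108 and 185 CPM in WT_EE. WT_SE mouse 3 stood far above all others, WT_EE mice 2 and 4 were the lowest, and WT_EE mouse 3 lay above 3 of the 4 WT_SE mice. WT_SE averaged 240.4 ± 65.6 CPM (SD, n = 4), the mean of the WT_EE mice was 153 ± 61.7 CPM (SD, n = 5), and the exact permutation test, two-sided, gave p = 0.0794. For Chgb, edgeR gave a log2 fold change of -0.59 (standard error 0.20, 95% interval -0.99 to -0.19), with an unadjusted p of 0.00476 and a Benjamini-Hochberg adjusted p of 0.330.

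Neither chromogranin passed without WT_SE mouse 3, where the log2 fold change was -0.31 for Chga (edgeR unadjusted p = 0.222) and -0.38 for Chgb (edgeR unadjusted p = 0.0701). With the 7 L2 libraries alone, edgeR gave -0.48 for Chga (unadjusted p = 0.0876) and -0.41 for Chgb (unadjusted p = 0.0942), and with the library-name ending as a term both also missed 0.05, at -0.50 (unadjusted p = 0.0848) and -0.43 (unadjusted p = 0.0750). In the 6 libraries with totals over 350000, a choice that leaves out WT_SE mouse 3 and WT_EE mice 2 and 4, the values were -0.04 for Chga (edgeR unadjusted p = 0.869) and -0.09 for Chgb (edgeR unadjusted p = 0.515). For both genes this removes the highest WT_SE mouse and the lowest WT_EE mice, so smaller values follow from the choice and decide nothing on library totals. Without a filter on low counts, the Benjamini-Hochberg adjusted p in edgeR was 0.0445 for Chga and 0.0266 for Chgb, the lowest of all alternatives tried, which ran up to 0.9999 for both. In the 5 libraries with under 50 Osr2 counts, also chosen after seeing the data, Chgb was at -0.67 (edgeR unadjusted p = 0.00126) and Chga at -0.42 (edgeR unadjusted p = 0.117). Both passed with the proximal, distal or epithelium mean as a term. With the proximal mean, also added after seeing the data, Chga was at -0.46 (edgeR unadjusted p = 0.0163) and Chgb at -0.49 (edgeR unadjusted p = 0.00588), with the distal mean at -0.53 (edgeR unadjusted p = 0.0392) and -0.51 (edgeR unadjusted p = 0.0154), and with the epithelium mean at -0.77 (edgeR unadjusted p = 0.00133) and -0.69 (edgeR unadjusted p = 0.000415).

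The mice with the least Chga and Chgb, WT_EE mice 2 and 4, had the highest summed levels of smooth muscle genes and also of epithelial genes. All 8 smooth muscle genes were counted, Acta2 most of all and none at 0, and their summed level was 2328, 1963, 2002 and 2466 CPM in WT_SE and 2010.0, 3542, 1913, 3476 and 2397 CPM in WT_EE. The mitochondrial share of counts was 0.611%, 0.628%, 0.691% and 0.620% in WT_SE and 0.566%, 0.762%, 0.520%, 0.667% and 0.552% in WT_EE, so that these mice were also the highest of WT_EE in it, and they had the lowest totals of WT_EE. In the 7 libraries without them, edgeR gave -0.34 for Chga (unadjusted p = 0.136) and -0.29 for Chgb (unadjusted p = 0.0657). Leaving out the lowest mice of the lower group brings the difference nearer to 0 by construction, so these values cannot decide the part of smooth muscle. With the mean of the smooth muscle genes as a term, also added after seeing the data, the values were -0.31 for Chga (edgeR unadjusted p = 0.0859) and -0.35 for Chgb (edgeR unadjusted p = 0.0194). The epithelial sums of WT_EE mice 2 and 4 were 4124 and 4305 CPM. Over all genes, the log2 slope of counts on totals was 0.55 for means of 80 to 160 counts. Acta2 (mean 156) and Des (mean 106) lie there, where CPM run higher in libraries with low totals, and the sums were not corrected for this. The part of tissue composition, library totals and RNA quality was not tested further.

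**Figure D2:**
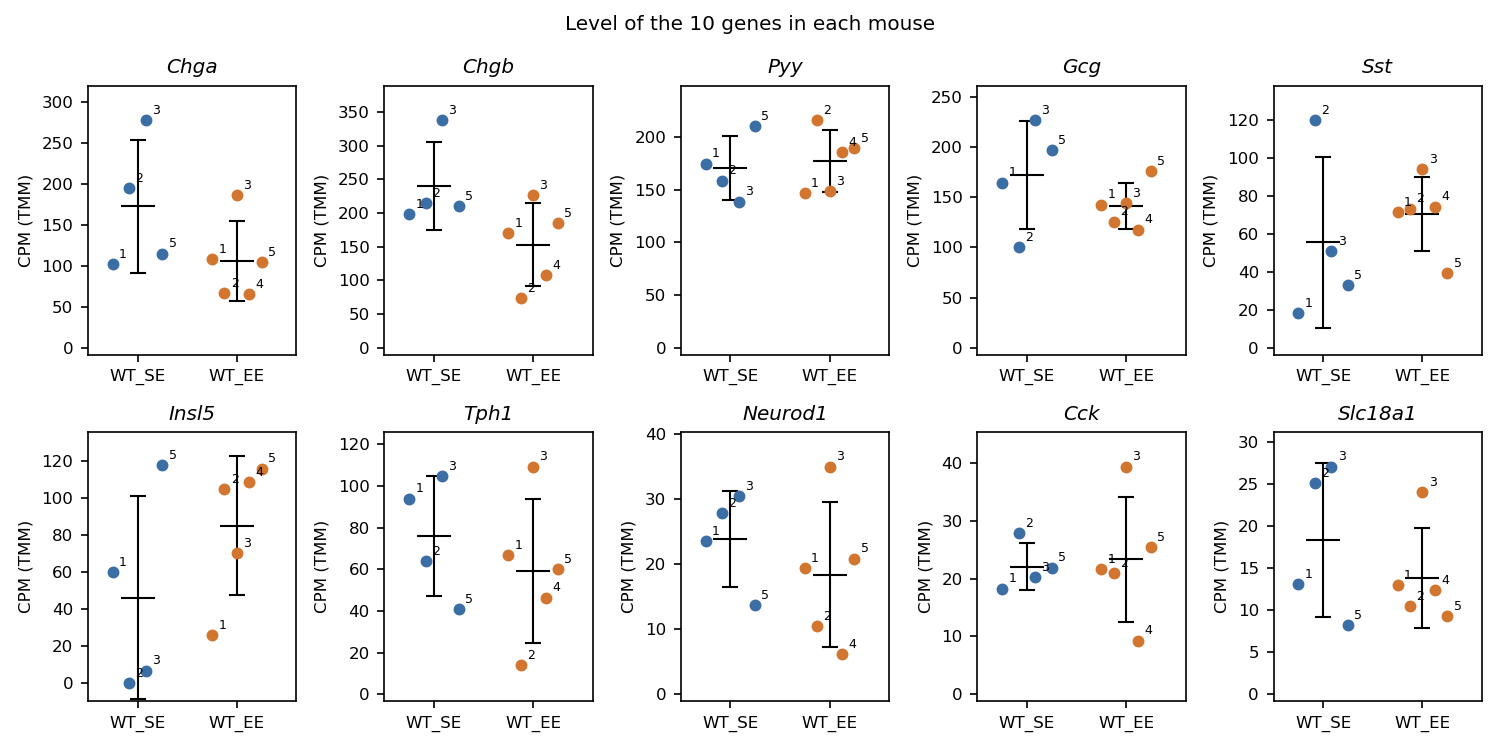
TMM-normalized CPM (y axis) of the 10 genes in WT_SE (4 mice, blue) and WT_EE (5 mice, orange), 1 numbered point per mouse, with the mean and SD as bars. The groups overlap in each gene, and WT_SE mouse 3 is highest for Chga (277 CPM) and Chgb (338 CPM).

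The regions around the starts of both chromogranin genes, and of Sst, shared a short motif, and they are shown because Chga and Chgb varied together across mice. Windows of 250 bases before to 50 bases after the start come from RefSeq on GRCm38.p6 and were found for 9 of the 10 genes, 12 windows in all, with none for Slc18a1. They were searched on both strands for TGACGT, for TGACGTCA, which contains TGACGT, for TATAAA and for CANNTG. Of these, TGACGT is the core of the element bound by CREB factors, TATAAA is the sequence of a TATA box, and CANNTG is the E-box bound by helix-loop-helix factors such as the one Neurod1 encodes. TGACGT was in the windows of Chga, Chgb and Sst and in 7.51% of 32851 windows of the same length, and TGACGTCA was in those of Chgb and Sst and in 1.79% of all windows. TATAAA was in the windows of Chga, Gcg and Insl5, and in 13.6% of all windows. In Chga it lay 5 bases after the start that defines the window, so it does not precede that start. It does precede the Ensembl start of Chga given above, at 102554969. CANNTG was in 11 of the 12 windows, at least 1 for each of the 9 genes, and in 72.3% of all windows. Capitals mark TGACGT or TGACGTCA, and TATAAA, in the windows of Chga (chr12:102554691-102554990, plus strand), Chgb (chr2:132781392-132781691, plus strand) and Sst (chr16:23890795-23891094, minus strand). These starts differ from the gene bounds given above, which are those of Ensembl, so that the Chgb window begins inside the gene as Ensembl places it. A match is a description of the letters only.
Chga: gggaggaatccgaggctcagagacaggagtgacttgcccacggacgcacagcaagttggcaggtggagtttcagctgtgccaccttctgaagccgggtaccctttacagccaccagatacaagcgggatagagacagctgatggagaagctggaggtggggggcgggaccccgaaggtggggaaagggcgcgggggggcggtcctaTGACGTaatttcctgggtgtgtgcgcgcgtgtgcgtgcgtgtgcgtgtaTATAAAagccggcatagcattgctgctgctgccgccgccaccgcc
Chgb: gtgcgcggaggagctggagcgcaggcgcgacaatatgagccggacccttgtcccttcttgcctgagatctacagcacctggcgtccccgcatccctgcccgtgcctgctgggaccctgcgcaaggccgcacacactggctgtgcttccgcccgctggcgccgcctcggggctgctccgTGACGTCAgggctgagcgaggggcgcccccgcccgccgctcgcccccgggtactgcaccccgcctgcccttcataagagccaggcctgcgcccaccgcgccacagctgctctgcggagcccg
Sst: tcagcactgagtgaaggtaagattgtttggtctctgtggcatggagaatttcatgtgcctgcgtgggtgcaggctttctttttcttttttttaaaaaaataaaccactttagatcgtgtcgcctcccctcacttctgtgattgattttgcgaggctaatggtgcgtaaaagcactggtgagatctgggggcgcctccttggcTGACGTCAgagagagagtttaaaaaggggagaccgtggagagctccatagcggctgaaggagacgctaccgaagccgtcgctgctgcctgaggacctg

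Tph1 encodes the enzyme that limits serotonin synthesis outside the brain, in enterochromaffin cells and in mast cells. Its level was 94.0, 64.0, 105 and 41.0 CPM in WT_SE and 66.9, 13.9, 109, 46.4 and 60.2 CPM in WT_EE. WT_EE mouse 3 was the highest of all 9 mice and WT_EE mouse 2, with 4 counts, the lowest, so that WT_EE spanned the whole of WT_SE. For Tph1 the log2 fold change was -0.27 (standard error 0.30, edgeR unadjusted p = 0.370), and the exact permutation p was 0.492, two-sided. The direction turned with the 7 L2 libraries alone (0.26, edgeR unadjusted p = 0.504) and with the library-name ending as a term (0.25), and without WT_EE mouse 3 the value was -0.61 (edgeR unadjusted p = 0.0485). Of 9 mast cell genes, Cpa3, Mcpt4, Cma1, Ms4a2 and Fcer1a were at 0 in all libraries, and the 4 counted ones held 33 counts in all, led by Hdc with 11. Their summed level was 5.22, 8.35, 0 and 5.47 CPM in WT_SE and 8.64, 6.97, 15.3, 24.7 and 11.6 CPM in WT_EE.

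Tph1 has 2 windows, on the minus strand of GRCm38.p6 at chr7:46672488-46672787 and chr7:46667328-46667627, shown because they held no TGACGT, unlike those of both chromogranins. They also held no TGACGTCA, which Chga lacks too, and no TATAAA, which Chgb lacks too. The windows of Pyy, Neurod1 and Cck likewise held none of these motifs, and only 7.51% of all windows held TGACGT. Both Tph1 windows are therefore in lower case throughout. No match says only that these letters are not in these windows.
Tph1 window 1: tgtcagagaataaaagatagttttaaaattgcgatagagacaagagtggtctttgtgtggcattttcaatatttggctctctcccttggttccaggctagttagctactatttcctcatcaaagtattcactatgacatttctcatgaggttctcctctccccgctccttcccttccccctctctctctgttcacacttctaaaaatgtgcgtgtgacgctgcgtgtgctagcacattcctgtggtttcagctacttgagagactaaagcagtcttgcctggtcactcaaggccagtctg
Tph1 window 2: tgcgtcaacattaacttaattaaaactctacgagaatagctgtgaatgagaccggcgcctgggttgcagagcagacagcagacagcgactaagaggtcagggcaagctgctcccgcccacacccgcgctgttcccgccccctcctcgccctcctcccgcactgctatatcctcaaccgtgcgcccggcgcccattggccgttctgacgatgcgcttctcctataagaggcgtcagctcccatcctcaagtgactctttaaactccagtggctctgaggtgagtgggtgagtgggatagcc

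Slc18a1, the vesicular monoamine transporter of enterochromaffin cells, had 3 to 11 counts per library and the lowest mean of the 10 genes. Its levels ran from 8.20 to 27.1 CPM in WT_SE and from 9.26 to 24.0 CPM in WT_EE, with WT_SE mice 2 and 3 and WT_EE mouse 3 the highest. Between environments the log2 fold change was -0.33 (standard error 0.46, edgeR unadjusted p = 0.461). Slc18a1 overlaps Atp6v1b2, a proton pump gene with 520 counts, on the other strand. Whether any of the few Slc18a1 counts came from Atp6v1b2 was not tested.

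Among the L cell hormones, the coefficient of variation over the 9 mice was 69.9% for Insl5, 26.0% for Gcg and 16.2% for Pyy. Gcg encodes proglucagon, the source of the glucagon-like peptides, and was at 164, 100.2, 227 and 197 CPM in WT_SE and at 142, 125, 144, 118 and 176 CPM in WT_EE. WT_SE mouse 2 was the lowest of all mice and WT_SE mouse 3 the highest, with the WT_EE mice between them. For Gcg the log2 fold change was -0.26 (standard error 0.18, edgeR unadjusted p = 0.152), and the two-sided exact permutation p was 0.278. Without WT_SE mouse 2 it was -0.44 (edgeR unadjusted p = 0.0108). In the 6 libraries with totals over 350000 it was 0.0019, but these leave out the highest WT_SE mouse and the lowest WT_EE mice for Gcg.

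Pyy encodes peptide YY, which slows transit and curbs appetite. Its level was 175, 159, 139 and 210.5 CPM in WT_SE and 147, 216, 149, 186 and 190 CPM in WT_EE. The environments covered almost the same span, and no other of the 10 genes had a smaller coefficient of variation. The log2 fold change was 0.03 (standard error 0.16, 95% interval -0.29 to 0.35, edgeR unadjusted p = 0.848), and its sign turned under several alternatives, among them upper quartile normalization (-0.0095).

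Insl5 encodes insulin-like peptide 5, a hormone of colonic L cells, and had 23, 0, 2 and 43 counts in WT_SE. In WT_EE it had 12, 30, 32, 35 and 50 counts. As levels, these were 60.0, 0, 6.76 and 118 CPM in WT_SE and 25.9, 105, 69.9, 108 and 116 CPM in WT_EE. WT_SE mice 2 and 3 did not exceed the floor and WT_EE mouse 1 was next lowest, while WT_SE mouse 5 had the highest level of all. These 3 low mice are among the 4 with high Slc10a2 and Osr2, and the remaining one, WT_EE mouse 3, lay in the middle. The part of position along the gut in the difference between environments was not tested apart from the fits with regional genes below.

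Insl5 averaged 46.1 ± 54.7 CPM in WT_SE (SD, n = 4), and the WT_EE mean was 84.9 ± 37.4 CPM (SD, n = 5). On the log2 scale the difference was 0.79 (standard error 0.43, 95% interval -0.09 to 1.67). The edgeR unadjusted p was 0.0755 and the Benjamini-Hochberg adjusted p 0.693, and the two-sided exact permutation p was 0.206. Without WT_SE mouse 5, Insl5 was at 1.79 (edgeR unadjusted p = 0.000352), and without WT_EE mouse 1 at 1.05 (edgeR unadjusted p = 0.0123). Without WT_SE mouse 2 the value was 0.37 and without WT_SE mouse 3 it was 0.48. With the mean of the proximal genes as a term, added after seeing the data, it was 0.52 (edgeR unadjusted p = 0.147), with the mean of the distal genes 0.55 (edgeR unadjusted p = 0.159), and in the 5 libraries with under 50 Osr2 counts 0.32 (edgeR unadjusted p = 0.230). With the smooth muscle mean as a term it was 0.37 (edgeR unadjusted p = 0.326), and with totals over 350000 it was 0.24 (edgeR unadjusted p = 0.599). Other settings went the other way. Insl5 passed with the epithelium mean as a term (0.96, edgeR unadjusted p = 0.0199) and without a filter on low counts (0.79, edgeR unadjusted p = 0.00107). In limma-voom it was at 2.00 (limma-voom unadjusted p = 0.0129).

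Sst encodes somatostatin, which is made by D cells and by some enteric neurons. Its level was 18.3, 120, 50.7 and 32.8 CPM in WT_SE and 71.2, 73.2, 94.0, 74.2 and 39.3 CPM in WT_EE. WT_SE mouse 2 had the highest level of all and the other 3 WT_SE mice lay below 4 of the 5 WT_EE mice. The log2 fold change was 0.35 (standard error 0.32, edgeR unadjusted p = 0.274), and the exact permutation p was 0.516, two-sided. Without WT_SE mouse 2 it was 1.09 (edgeR unadjusted p = 0.00125), and with the 7 L2 libraries alone it turned to -0.10 (edgeR unadjusted p = 0.774).

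Neurod1, a helix-loop-helix transcription factor of late enteroendocrine differentiation, had 2 to 16 counts per library. Its levels ran from 13.7 to 30.4 CPM in WT_SE and from 6.19 to 35.0 CPM in WT_EE, with WT_EE mouse 3 the highest and WT_EE mouse 4 the lowest. The log2 fold change was -0.27 (standard error 0.41, edgeR unadjusted p = 0.504). Neurod1 overlaps Cerkl on its own strand, but Cerkl held 2 counts in all. Cck, the cholecystokinin gene, had 3 to 18 counts per library, with levels from 18.3 to 27.8 CPM in WT_SE and from 9.28 to 39.3 CPM in WT_EE and a log2 fold change of 0.13 (standard error 0.38, edgeR unadjusted p = 0.737). The intervals of both genes span more than 1 unit of log2, so a moderate difference was not detectable at this depth.

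**Figure D3:**
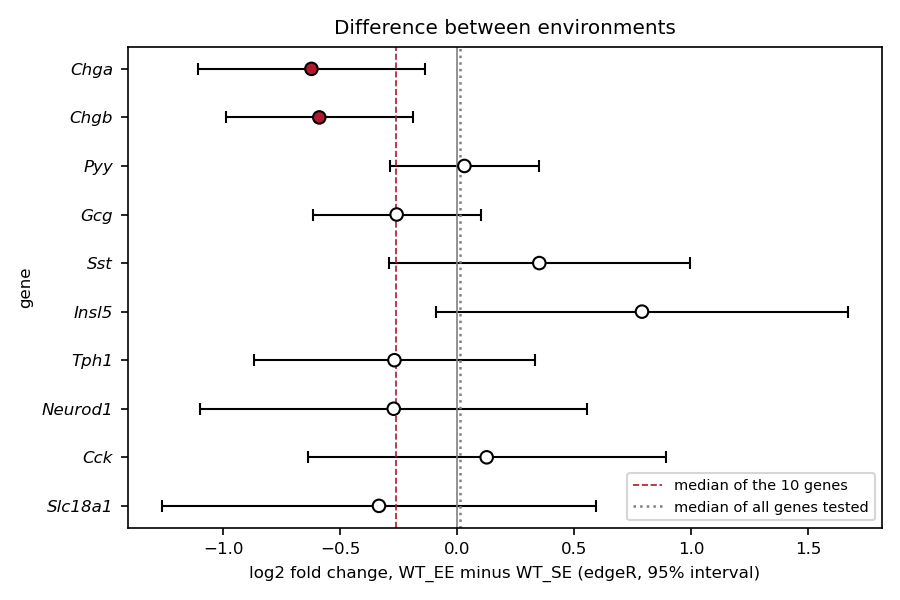
Log2 fold change of WT_EE over WT_SE (x axis) for the 10 genes (y axis), with edgeR 95% intervals, filled where the unadjusted p was under 0.05. Chga (-0.62) and Chgb (-0.59) are filled, and the dashed and dotted lines mark the medians of the 10 genes (-0.26) and of all genes tested (0.01).

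Because counts at the 3′ end do not grow with transcript length, levels could be compared between genes, within a limit. Over all genes, counts rose with library totals at a log2 slope of 1.30 to 1.35 for means of 5 to 40 counts. For means of 40 to 80 it was 1.04, so weakly and strongly counted genes do not follow the totals alike. The order was not corrected for this. In mean CPM over the 9 mice the order was Chgb (192), Pyy (174), Gcg (155), Chga (135), Insl5 (67.6), Tph1 (66.7), Sst (63.7), Cck (22.8), Neurod1 (20.8) and Slc18a1 (15.8). No pair of neighbours in this order differed at an adjusted p under 0.05 by two-sided exact sign-flip permutation tests with Benjamini-Hochberg adjustment over 9 pairs. The smallest p was that of the step from Sst to Cck, where Sst was 41.0 CPM higher on average and higher in 8 of 9 mice (exact permutation p = 0.00781, adjusted p = 0.0703). The step from Chga to Insl5 was wider, at 67.7 CPM, but Chga was higher in 5 of 9 mice (exact permutation p = 0.113, adjusted p = 0.340). Neurod1 exceeded Slc18a1 in 7 of 9 mice by 4.98 CPM on average (exact permutation p = 0.0469, adjusted p = 0.211). Chgb was the highest of the 10 genes in 5 mice, Pyy in WT_EE mice 2, 4 and 5, and in WT_SE mouse 5 both had 77 counts. The order also differed between the environments. In WT_SE the means were 240.4 for Chgb, 172 for Chga, 172 for Gcg, 171 for Pyy, 76.0 for Tph1, 55.4 for Sst, 46.1 for Insl5, 23.9 for Neurod1, 22.1 for Cck and 18.3 CPM for Slc18a1. In WT_EE Pyy came first with 177, followed by Chgb (153), Gcg (141), Chga (106), Insl5 (84.9), Sst (70.4), Tph1 (59.3), Cck (23.3), Neurod1 (18.4) and Slc18a1 (13.8 CPM). Neighbours were not tested within each environment.

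Ratios of counts within a mouse, which need no common scaling factor, were compared for 6 pairs of genes. They can still move with the library total, since the log2 slope of counts on totals differed with the mean count. Over all genes it was 1.30 for means of 20 to 40 counts, where Sst, Insl5 and Tph1 lie. For means of 40 to 80, where the other genes of these pairs lie, it was 1.04, and the ratios were not corrected for this. The log2 ratio of Sst to Chga was -2.40, -0.70, -2.41 and -1.77 in WT_SE and -0.59, 0.14, -0.97, 0.19 and -1.38 in WT_EE. WT_SE mouse 2 lay among the WT_EE mice and the other 3 WT_SE mice below all of them. The mean was 1.29 higher in WT_EE, with a two-sided exact permutation p of 0.0476 and a Benjamini-Hochberg adjusted p of 0.238 over the 6 ratios. The unadjusted call was lost when any mouse other than WT_SE mouse 2 was left out, with differences of 1.10 to 1.51 and exact permutation p-values of 0.0571 to 0.107, and without WT_SE mouse 2 the difference was 1.67 (exact permutation p = 0.0357).

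Insl5 relative to the other L cell hormones differed mainly through 2 mice. The log2 ratio of Insl5 to Gcg was -1.43, -6.19, -4.75 and -0.74 in WT_SE and -2.41, -0.26, -1.03, -0.12 and -0.60 in WT_EE. WT_SE mice 2 and 3, at or under the floor for Insl5, were far below the rest. The mean difference was 2.40 (exact permutation p = 0.0952, adjusted p = 0.238), and for Insl5 to Pyy it was 2.11 (exact permutation p = 0.119, adjusted p = 0.238). Without WT_SE mouse 2, whose ratio is set by the offset because it had 0 Insl5 counts, these were 1.42 (exact permutation p = 0.214) and 0.93 (exact permutation p = 0.321), and with an offset of 1 they were 2.09 and 1.81 over all mice. Without WT_SE mouse 5 the differences were 3.24 and 2.93, each with an exact permutation p of 0.0357. The ratio of Pyy to Gcg differed by 0.29 (exact permutation p = 0.476), that of Tph1 to Chga by 0.17 (exact permutation p = 0.706) and that of Chga to Chgb by 0.03 (exact permutation p = 0.865).

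Across the 9 mice, 21 pairs of the 7 genes with a mean of at least 10 counts were compared on log2 CPM, with exact permutation tests and Benjamini-Hochberg adjustment over the 21. Chga and Chgb varied together, with Pearson r = 0.88 (exact permutation p = 0.00105, adjusted p = 0.0220) and Spearman rho = 0.90 (exact permutation p = 0.00203, adjusted p = 0.0426). Without the 2 mice farthest from the median of Chga, r was 0.85, and over the 7 L2 libraries it was 0.86 (exact permutation p = 0.0131). For the 2 L3 libraries alone no value can be given. Chgb ranked 34th in r with Chga among 8492 genes.

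Pyy and Tph1 varied in opposite directions, with r = -0.81 (exact permutation p = 0.00385, adjusted p = 0.0377) and rho = -0.87 (exact permutation p = 0.00451, adjusted p = 0.0473). Without the 2 mice farthest from the median of Pyy, r was -0.70, and over the L2 libraries it was -0.82 (exact permutation p = 0.00456). Chgb and Tph1 had r = 0.85 (exact permutation p = 0.00539, adjusted p = 0.0377) and rho = 0.70 (exact permutation p = 0.0433, adjusted p = 0.182). That relation rested on the 2 mice farthest from the median of Chgb, since r was 0.49 without them, and it was 0.83 (exact permutation p = 0.0240) over the L2 libraries.

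The other 18 pairs had adjusted p-values above 0.05, and 6 of them an unadjusted one under 0.05 for r. Pyy and Insl5, both L cell hormones, had r = 0.69 (exact permutation p = 0.0379, adjusted p = 0.107) and rho = 0.77 (exact permutation p = 0.0214, adjusted p = 0.134), with r = 0.58 without the 2 mice farthest from the median of Pyy and 0.60 over the L2 libraries (exact permutation p = 0.150). Gcg and Sst had r = -0.68 (exact permutation p = 0.0459, adjusted p = 0.107) and rho = -0.75 (exact permutation p = 0.0255, adjusted p = 0.134), with r = -0.71 without 2 mice and -0.90 over the L2 libraries (exact permutation p = 0.00873). With a prior count of 0.5 in the log2 CPM, r was 0.62 for Pyy and Insl5 (exact permutation p = 0.0710), which missed 0.05. For Gcg and Sst it was nearly the same as before, at -0.67 (exact permutation p = 0.05001).

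The remaining 4 pairs with an unadjusted p under 0.05 each held a chromogranin. Chga and Pyy had r = -0.75 (exact permutation p = 0.0216, adjusted p = 0.107) and rho = -0.63 (exact permutation p = 0.0760, adjusted p = 0.254), with r = -0.61 when the 2 mice farthest from the median of Chga were left out and -0.65 over the L2 libraries (exact permutation p = 0.135). Chga and Insl5 had r = -0.73 (exact permutation p = 0.0269, adjusted p = 0.107) and rho = -0.53 (exact permutation p = 0.148, adjusted p = 0.310), which rested on 2 mice, as r was -0.30 without them, and it was -0.63 over the L2 libraries (exact permutation p = 0.114). For Chgb and Pyy, r was -0.67 (exact permutation p = 0.0436, adjusted p = 0.107) and rho -0.60 (exact permutation p = 0.0968, adjusted p = 0.254), with r = -0.44 without 2 mice and -0.54 over the L2 libraries (exact permutation p = 0.217). Chga and Tph1 had r = 0.70 (exact permutation p = 0.0317, adjusted p = 0.107) and rho = 0.57 (exact permutation p = 0.121, adjusted p = 0.281), with r = 0.73 without 2 mice and 0.73 over the L2 libraries (exact permutation p = 0.0548). All 4 missed an adjusted p of 0.05.

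**Figure D4:**
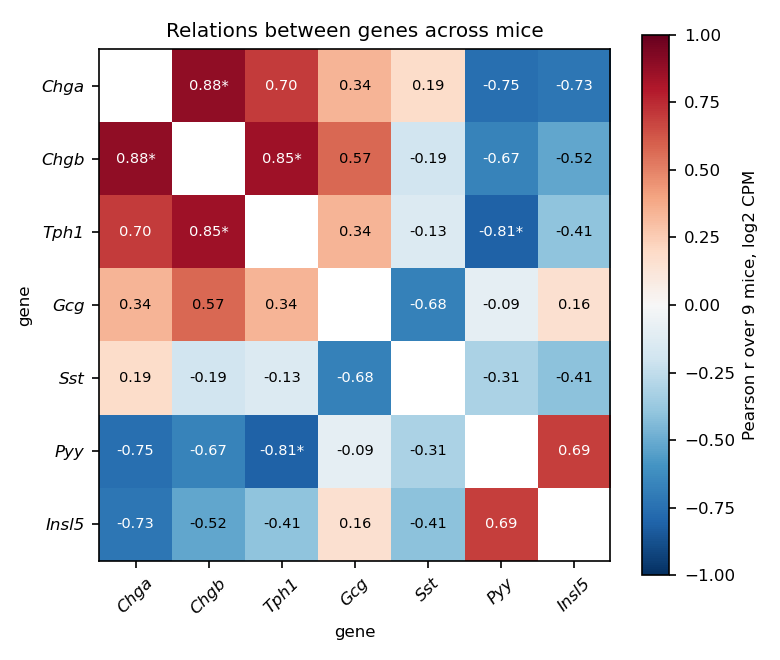
Pearson r over 9 mice on log2 CPM for each pair of the 7 genes with a mean of at least 10 counts (both axes list genes), from blue (-1) to red (1), with a star where the adjusted p was under 0.05. The starred pairs are Chga with Chgb (0.88), Chgb with Tph1 (0.85) and Pyy with Tph1 (-0.81).

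Among the relations run with 3 marker lists, the closest over the 9 mice was that of Sst to the enteric neuron genes. It missed an adjusted p of 0.05 with the prior count of 2 used throughout. In 21 relations of the same 7 genes with the means of the epithelium, enteric neuron and distal lists, Sst and the neuron mean had r = 0.86 (exact permutation p = 0.00243, adjusted p = 0.0510) and rho = 0.88 (exact permutation p = 0.00308, adjusted p = 0.0646). Without the 2 mice farthest from the median of the neuron mean, r was 0.86, and over the L2 libraries it was 0.82 (exact permutation p = 0.0135). With a prior count of 0.5 the relation passed, at r = 0.89 (exact permutation p = 0.00104, adjusted p = 0.0218). Over the L2 libraries Chga and the epithelium mean were closer, at r = -0.84 (exact permutation p = 0.0204), but over all 9 mice their r was -0.44. All 14 neuron genes were counted, Stmn2 most of all, and none was at 0 throughout. Their summed level was 431, 588, 413 and 448 CPM in WT_SE and 445, 631, 568, 637 and 377 CPM in WT_EE. WT_SE mouse 2 and WT_EE mice 2, 3 and 4 were the highest in the neuron sum, and the same 4 mice were the highest for Sst. The part of neurons in the level of Sst was not tested.

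Of the 14 neuron genes, 2 were higher in WT_EE at an unadjusted p under 0.05 in edgeR and none was lower, with a median log2 fold change of 0.16. Over all genes tested, 4.31% were higher and 3.34% lower. The 2 neuron genes were Ret, a receptor of enteric nerve precursors, at 1.16 (edgeR unadjusted p = 0.0153), and Nos1, the neuronal nitric oxide synthase, at 0.67 (edgeR unadjusted p = 0.0211). With the 7 L2 libraries alone, Ret was at 0.76 (edgeR unadjusted p = 0.153) and Nos1 at 0.58 (edgeR unadjusted p = 0.0789). Ret also missed 0.05 without WT_SE mouse 1 (0.96, edgeR unadjusted p = 0.0580), and Nos1 without WT_SE mouse 3 (0.45, edgeR unadjusted p = 0.108) or WT_EE mouse 4 (0.54, edgeR unadjusted p = 0.0695). Nos1 was highest in WT_EE mice 2 and 4, at 90.6 and 99.0 CPM, the mice with the highest smooth muscle and epithelial sums in CPM. In the 7 libraries with smooth muscle sums under 3000 CPM, Nos1 was at 0.36 (edgeR unadjusted p = 0.234) and Ret at 0.97 (edgeR unadjusted p = 0.0649). These libraries leave out WT_EE mice 2 and 4, the highest for both genes, so smaller values follow from the choice. With the smooth muscle mean as a term Nos1 was at 0.41 (edgeR unadjusted p = 0.137), while Ret still passed, at 1.07 (edgeR unadjusted p = 0.0326). With totals over 350000, which leaves out the same mice and WT_SE mouse 3, Nos1 was at 0.13 (edgeR unadjusted p = 0.638) and Ret at 0.88 (edgeR unadjusted p = 0.104). Gcg and the neuron mean had r = -0.76 (exact permutation p = 0.0218, adjusted p = 0.229) and rho = -0.72 (exact permutation p = 0.0369, adjusted p = 0.258), with r = -0.78 without 2 mice and -0.80 over the L2 libraries (exact permutation p = 0.0417). Pyy and the distal mean had r = 0.68 (exact permutation p = 0.0466, adjusted p = 0.326) and rho = 0.73 (exact permutation p = 0.0311, adjusted p = 0.258), which rested on 2 mice, as r was 0.34 without them, and it was 0.57 over the L2 libraries (exact permutation p = 0.176). A prior count of 0.5 gave r = 0.48 for it (exact permutation p = 0.193).

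Other genes of the same cells were read from lists, in edgeR at an unadjusted p under 0.05 and with no gene past the Benjamini-Hochberg adjustment in any list. Beside each list below stands the share over all genes tested, 4.31% higher in WT_EE and 3.34% lower. Of 15 transcription factors of enteroendocrine differentiation, 14 were tested and 1 was higher, Etv1 (0.60, edgeR unadjusted p = 0.0487), with a median log2 fold change of 0.02. The call for Etv1 was lost without WT_SE mouse 3 or 5 or without WT_EE mouse 2, 4 or 5, with values from 0.39 without WT_SE mouse 3 (edgeR unadjusted p = 0.183) to 0.62 without WT_EE mouse 5 (edgeR unadjusted p = 0.0564), so that the fold was not smaller in each case. It was lost in 19 of 28 alternatives in all, and was lowest with totals over 350000 (0.23, edgeR unadjusted p = 0.466). Sox4 was the most counted of them, while Neurog3, the factor that starts this lineage, had 0 to 4 counts per library. Of 20 granule and prohormone processing genes, all tested, none passed and the median was 0.16, with Syt7, a calcium sensor of exocytosis, the most counted. Of 10 other gut hormones, 6 were tested and none passed, with a median of 0.06. Nts, the neurotensin gene, was the most counted, with 26, 68, 60 and 1 counts in WT_SE and 55, 0, 78, 2 and 15 in WT_EE, high in the same 4 mice as Slc10a2 and Osr2.

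Of 13 sensors by which these cells read the gut contents, 9 were tested, with a median of -0.07. Ffar2, a receptor of short-chain fatty acids, was higher in WT_EE (0.39, edgeR unadjusted p = 0.0431), a call lost without WT_SE mouse 1, 2 or 3 or WT_EE mouse 2 or 5, with values from 0.20 without WT_SE mouse 2 (edgeR unadjusted p = 0.267) to 0.41 without WT_SE mouse 1 (edgeR unadjusted p = 0.0567). Trpa1, a channel that responds to irritants, was lower by the same test (edgeR unadjusted p = 0.0413) but had 7 counts in all and at most 3 in a library, so no fold is given. The sugar transporter Slc5a1 was the most counted sensor, and Casr was at 0.

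The receptors of these hormones held the smallest p of any listed gene. Of 21 receptors and the like, 15 were tested, 2 were higher in WT_EE and 1 was lower, with a median log2 fold change of 0.45, and Gcgr, Htr1a and Htr2a were at 0. Sstr1, a somatostatin receptor, had 22, 20, 17 and 22 counts in WT_SE and 20, 3, 12, 2 and 6 in WT_EE. As levels, each WT_SE mouse lay above each WT_EE mouse, with 57.7 ± 1.83 CPM on average in WT_SE (SD, n = 4) against 19.99 ± 14.96 CPM (SD, n = 5). The SD of WT_SE is smaller than the 2.20 to 3.38 CPM that 1 count stands for, so it lies below counting error. WT_EE mice 2 and 4, also the lowest for Chga and Chgb, were at or under the floor of 3 counts. For Sstr1 edgeR gave a log2 fold change of -1.41 (standard error 0.33, edgeR unadjusted p = 0.000125, Benjamini-Hochberg adjusted p = 0.0853). Over 28 alternatives its unadjusted p stayed between 9.96e-08 and 0.00356 and its log2 fold change between -2.44 and -1.03. Its Benjamini-Hochberg adjusted p ran from 0.000101 to 0.791 over them and was under 0.05 in 6, among them the fit without WT_EE mouse 1 (-1.90, edgeR adjusted p = 0.00563). The smallest folds were -1.03 with totals over 350000 and -1.04 with smooth muscle sums under 3000 CPM. Both settings leave out WT_EE mice 2 and 4, the lowest for Sstr1, so smaller values follow from the choice. Cckar, the receptor of cholecystokinin, had 8, 9, 3 and 11 counts in WT_SE and 16, 14, 19, 14 and 17 in WT_EE, and its levels did not overlap either. The fitted difference was 0.89 on the log2 scale (standard error 0.32, edgeR unadjusted p = 0.00784, Benjamini-Hochberg adjusted p = 0.406), and it was 0.58 with the 7 L2 libraries alone (edgeR unadjusted p = 0.116). Groups did not overlap in 2.58% of all genes tested, and of other lists Cdx2, Tff3 and Trpa1 did not overlap either. Npy4r, a receptor of the peptide YY family, was at 0.90 (edgeR unadjusted p = 0.0398) on 1 to 12 counts per library, and the call was lost without WT_SE mouse 2, 3 or 5 or WT_EE mouse 2 or 5, with values from 0.64 without WT_SE mouse 3 (edgeR unadjusted p = 0.130) to 0.91 without WT_SE mouse 2 (edgeR unadjusted p = 0.0540).

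The lists of other tissue parts were read by the same test, beside the same 4.31% of all genes tested higher in WT_EE and 3.34% lower. Of the 12 epithelial genes, Lgals4 was higher in WT_EE (0.31, edgeR unadjusted p = 0.0268) and Cdx2, a transcription factor of intestinal identity, was lower (-0.67, edgeR unadjusted p = 0.00196), with a median of 0.00. Lgals4 did not pass without WT_SE mouse 1 (0.24, edgeR unadjusted p = 0.118) or WT_EE mouse 4 (0.26, edgeR unadjusted p = 0.0590). It also missed with the 7 L2 libraries alone (0.21, edgeR unadjusted p = 0.234), and in 9 of 28 alternatives in all. Cdx2 passed under each of 28 alternatives, with unadjusted p-values up to 0.0349. Of 9 tuft and goblet cell genes, led by Muc2, Clca1 was higher (0.52, edgeR unadjusted p = 0.00823) and Tff3 lower (-0.41, edgeR unadjusted p = 0.00435), with a median of 0.13. Clca1 was at 0.36 without WT_SE mouse 2 (edgeR unadjusted p = 0.0574) and at 0.34 without WT_EE mouse 4 (edgeR unadjusted p = 0.0510), and Tff3 missed with the 7 L2 libraries alone (-0.28, edgeR unadjusted p = 0.106). Of 8 smooth muscle genes, 3 were higher and none lower, namely Acta2 (0.36), Des (0.38) and Smtn (0.43), with a median of 0.29. Their calls were lost when single mice were left out, for all 3 without WT_SE mouse 2, WT_SE mouse 3 or WT_EE mouse 2, with edgeR unadjusted p-values up to 0.189, 0.137 and 0.0720, and over all mice left out in turn the values ran from 0.22 to 0.51, 0.25 to 0.50 and 0.30 to 0.56. With totals over 350000 they were 0.0078, -0.020 and 0.12, and none passed. With smooth muscle sums under 3000 CPM, a limit set on these genes themselves, they were -0.027, 0.030 and 0.20. The 8 fat genes had a median of -0.60, and Plin1 was lower (edgeR unadjusted p = 0.0207) with 25 of its 40 counts in WT_SE mouse 1, without which it was at 0.46 (edgeR unadjusted p = 0.641). Of the 3 mast cell genes tested, Hdc was higher in WT_EE (edgeR unadjusted p = 0.0464), with 4 counts or fewer in each library. That call was lost without WT_SE mouse 2, 3 or 5 or WT_EE mouse 3, 4 or 5 (edgeR unadjusted p up to 0.125) and in 14 of 27 alternatives in all. Cela1, the only pancreas gene tested, was at -0.16 (edgeR unadjusted p = 0.425).

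The 5 genes whose log2 CPM was most like the mean of the 7 better counted genes over the 9 mice, among 8486 genes, were Rnf219 (r = 0.94), Polr2f (0.92), Fmc1 (0.91), Sec63 (0.90) and Trappc13 (0.90). These values are a description with no test.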

How the data were processed

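Colon RNA of 9 wild-type mice was counted in 1 library per mouse made with a 3′ messenger RNA kit. The authors deposited molecule counts that were not normalized, and genes without a count are not listed and were taken as 0. Per the labels, reads were handled with fastp, STAR, featureCounts and UMI-tools on GRCm38.p6. Library totals were 295535 to 454043 counts, so that 1 count stands for 2.20 to 3.38 CPM, and floors cover counting error only.

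A gene was tested if any library, 1 or more, held at least 4 CPM of it, and 17441 genes met this. They were normalized by TMM and compared in R 4.3.3 with the quasi-likelihood F test of edgeR 4.0.16, with environment as the only term and Benjamini-Hochberg adjustment over all genes tested. The common biological coefficient of variation was 15.1%. CPM use TMM-normalized totals, log2 CPM a prior count of 2, and log2 ratios an offset of 0.5 counts. Single levels and ratios were compared by two-sided exact permutation over 126 partitions of the mice (smallest p 0.00794), neighbouring levels by sign flips (smallest p 0.00391) and correlations by exact pairings, with scipy 1.17.1, pandas 2.3.3 and numpy 2.4.6 in python 3.11.15. Plots were made in matplotlib 3.10.9. The edgeR steps were tested on simulated data.

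The members and lists were chosen with earlier results of these data known. The lists were transcription factors of enteroendocrine differentiation, other gut hormones, granule processing, sensors, hormone receptors, enteric neurons, mast cells, pancreas, epithelium, tuft and goblet cells, smooth muscle, fat, and distal and proximal region. Named were the 10 genes, the most counted gene of each list, each listed gene with an unadjusted p under 0.05, and the 5 genes most like the mean of the members with a mean of at least 10 counts. Outside this rule, Osr2, Hoxa7, Hoxb13, Hoxd10, Neurog3, Cfd, Adipoq and genes at 0 were named after their values were seen.

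Alternatives were other filters and normalizations, DESeq2 1.42.0, limma-voom (limma 3.58.1), a likelihood ratio test, the mouse number as a replicate block, the library-name ending, epithelium or distal genes as covariates, L2 libraries alone, each mouse left out, a stricter p, and other offsets. Chosen after seeing the data were the libraries with totals over 350000, those with under 50 Osr2 counts, those with a smooth muscle sum under 3000 CPM, proximal or smooth muscle genes as a covariate, and edgeR's newer quasi-likelihood form.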

Additional observations from a re-analysis of the deposited data

Results flagged for a closer look

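In 6 of 62 groups of values, 1 mouse lay far from the others of its environment, where chance alone gives about 1 in 20, or 3.1. Chgb was at 338 CPM in WT_SE mouse 3 and at 198 to 214 CPM in the other WT_SE mice. Slc18a1 was at 24.0 CPM in WT_EE mouse 3 and at 9.26 to 12.95 CPM in the other WT_EE mice. The log2 ratio of Insl5 to Pyy was -2.45 in WT_EE mouse 1 and -1.08 to -0.71 in the others. The log2 ratio of Tph1 to Chga was -0.11 in WT_SE mouse 1 and -1.58 to -1.39 in the other WT_SE mice, and it was -2.12 in WT_EE mouse 2 and -0.78 to -0.47 in the other WT_EE mice. The summed level of the granule processing genes was 1263 CPM in WT_SE mouse 1 and 1402 to 1414 CPM in the other WT_SE mice.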

How the results depend on the processing

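Of 391 tested values under alternatives, 322 kept their direction and side of the threshold, 46 of 58 counts of genes stayed within 1.5 times the reported one, and 27 of 28 medians moved by less than 0.257, the SD between mice of an environment of the 10 genes' mean log2 CPM. Causes of the changes were not tested. The count of all genes at an unadjusted p under 0.05 was 643 with DESeq2, 688 with the library-name ending as a term, 680 with L2 libraries alone, 410 at a p under 0.01, and 899 to 1581 with each mouse left out. The count of the 10 genes was 0 with the ending, with L2 libraries, with totals over 350000 and with smooth muscle sums under 3000 CPM, 1 with the smooth muscle mean as a term (7.59% of all genes), 1 at a p under 0.01 (2.35%), and 0 to 4 with each mouse left out. Their median was 0.12 with totals over 350000, -0.0098 with smooth muscle sums under 3000 CPM, -0.051 with the smooth muscle mean, -0.068 with L2 libraries, -0.080 with the ending, and -0.43 to -0.09 with each mouse left out. With the ending as a term, signs turned for Sst (-0.11), Pyy (-0.076), Cck (-0.041) and Tph1 (0.25), and with L2 libraries for Sst (-0.098), Pyy (-0.065), Cck (-0.026) and Tph1 (0.26). With totals over 350000 they turned for Gcg (0.0019), Pyy (-0.16), Neurod1 (0.21), Slc18a1 (0.016) and Tph1 (0.25). With smooth muscle sums under 3000 CPM they turned for Pyy (-0.090), Neurod1 (0.089) and Tph1 (0.070), and with the smooth muscle mean for Pyy (-0.11) and Neurod1 (0.015). Pyy also turned with upper quartile normalization (-0.0095), the distal (-0.039) or proximal (-0.056) mean as a term, and with mice left out (-0.04 to 0.15), and Cck with the epithelium mean (-0.054), under 50 Osr2 counts (-0.070) and mice left out (-0.15 to 0.31). The Chga to Chgb ratio ran from -0.10 to 0.18 with mice left out, and with a prior count of 0.5 r turned for the neuron mean and Pyy (-0.015) and the distal mean and Sst (-0.030). Under 50 Osr2 counts, Sst (1.24) and Tph1 (-0.67) passed. Insl5 passed with limma-voom (2.00), no filter (0.79) and the epithelium mean (0.96). Over all genes, the log2 slope of counts on totals was 1.30 to 1.35 for genes with means of 5 to 40 counts, 1.04 for 40 to 80 and 0.55 for 80 to 160.

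With mouse number as a replicate block, 3 of the 10 genes and 6.71% of all genes passed, with a median of -0.17, and Insl5 was at 0.81 (edgeR unadjusted p = 0.00208). Same-numbered mice of the 2 environments are different animals, and their deviations correlated across genes at -0.022, 0.047, 0.113 and 0.126. Pairs with unlike numbers ran from -0.28 to 0.179, so the same-numbered pairs lay within the range of the others. These values cannot decide whether any mice are paired.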
